A study of Homo sapiens with 12 samples.

Results

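The BCL2 family sets whether a stressed cell permeabilizes its mitochondria and dies. Values were taken for 10 of its genes, chosen by name: the pro-survival genes BCL2, BCL2L1 (whose main product is BCL-XL) and MCL1, the pore-forming effectors BAX and BAK1, and the BH3-only genes BBC3 (PUMA), PMAIP1 (NOXA), BIK, BMF and BCL2L11 (BIM). They are 10 of 55882 gene symbols in the count table, and all 10 were among the 14799 genes with enough counts to be tested.

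Pro-survival proteins of the family sit on the mitochondrial outer membrane and hold the effectors in check. BH3-only proteins are the sensors of the pathway: they carry only the BH3 helix of the family, fit it into a groove of the pro-survival proteins, and in the case of BIM and PUMA can also activate the effectors directly. Once free, BAX and BAK1 oligomerize and release cytochrome c, which starts the caspase cascade. NOXA binds MCL1 with particular preference, while BIM and PUMA bind all the main pro-survival proteins. BCL2 is a marker of estrogen receptor-positive breast cancer and a known estrogen-induced gene in breast cancer cell lines. BBC3 and PMAIP1 are classical targets of the tumour suppressor p53, a protein that is mutated in T47D cells.

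RNA was sequenced from T47D cells, an established line of luminal human breast cancer that expresses the estrogen receptor. There were 12 libraries, 3 in each of 4 groups: cells with ectopic HOXB13 given estradiol, cells with ectopic HOXB13 given ethanol vehicle, control T47D cells given estradiol, and control T47D cells given vehicle. HOXB13 is a homeobox transcription factor. All groups were kept in phenol-free DMEM with 10% charcoal-stripped serum, which is low in steroid hormones, for 72 h before 2 nM estradiol or ethanol was given for 24 h. The labels call the control cells WT and mention no empty vector, and they state neither the vector, nor its promoter, nor whether the HOXB13 cells are 1 clone. They also do not say whether the 3 libraries of a group come from separate cultures, so the spread behind each p-value may be technical only.

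Depth was 17679824 to 21385996 counts per library. HOXB13 itself had 110, 92 and 97 counts in HOXB13 cells with estradiol and 112, 106 and 108 counts in HOXB13 cells with vehicle, against 0 counts in each control library with estradiol and 2, 0 and 1 counts in control libraries with vehicle. GREB1, an estrogen receptor target, averaged 517 ± 104 CPM (counts scaled to the size of each library) with estradiol and 213 ± 80.1 CPM with vehicle in HOXB13 cells, and 529 ± 119 CPM with estradiol and 157 ± 42.9 CPM with vehicle in control cells (SD, n = 3 each). TFF1, another estrogen receptor target, had 2.33 to 3.45 CPM with estradiol and 0.48 to 0.84 CPM with vehicle in HOXB13 cells, and 2.73 to 4.33 CPM with estradiol and 0 to 0.42 CPM with vehicle in control cells. HOXB13 and both targets thus went with the labels. All 9 luminal epithelial markers were present, with summed levels of 18990 to 26420 CPM over the libraries. The 5 basal and mesenchymal markers summed to 3.08 to 9.63 CPM, with VIM the highest of them at 2.48 to 8.86 CPM. The 4 leukocyte markers summed to 0 to 0.99 CPM in any library, the endothelial markers were at 0 counts in every library for CDH5 and at most 5 counts for VWF, and the 4 fibroblast markers summed to 1.03 to 3.21 CPM. The bulk libraries cannot tell fewer cells of a state from less RNA per cell.

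The genes chosen were dominated by their pro-survival members, and BCL2 was not among the abundant ones. Levels between genes are compared per kilobase of merged exon (CPM per kb), averaged over the 12 libraries. BCL2L1 was highest with 135 CPM per kb and MCL1 followed with 66.2 CPM per kb. The effector BAK1 came next with 16.9 CPM per kb. BAX had 5.89 CPM per kb and the BH3-only gene BMF, which encodes a sensor tethered to the cytoskeleton, had 4.57 CPM per kb.

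The other BH3-only genes of the 10 were low. BCL2L11 had 2.14, BIK 2.00, BBC3 1.88 and PMAIP1 0.84 CPM per kb. BCL2 was the lowest of the 10 with 0.21 CPM per kb. BCL2L1, MCL1 and BAK1 did not overlap any other member in any library. Below them the ranges over libraries overlapped between neighbours: BAX with BMF, BMF with BCL2L11 and BCL2L11 with BIK. BIK also overlapped BBC3, BBC3 overlapped PMAIP1 and PMAIP1 overlapped BCL2. These ranges pool the groups and so include treatment changes. Within every library BMF was above BCL2L11 and PMAIP1 above BCL2, and BCL2 was the lowest. The order of the other neighbours was not the same in every library. The place of BCL2 depends on division by its merged exon length of 11765 bases. In plain CPM, averaged over the 12 libraries, BCL2 had 2.50, above BIK with 1.90 and PMAIP1 with 1.88.

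Summed over the chosen genes alone, the pro-survival class was several times more abundant than the pro-death class in every group. The 3 pro-survival genes summed to 179 ± 13.6 CPM per kb in HOXB13 cells with estradiol and 209.65 ± 17.7 CPM per kb in HOXB13 cells with vehicle, and to 190.2 ± 3.60 CPM per kb in control cells with estradiol and 225 ± 15.1 CPM per kb in control cells with vehicle (SD, n = 3 each). The 7 pro-death genes summed to 33.2 ± 1.38 CPM per kb in HOXB13 cells with estradiol and 35.3 ± 5.77 CPM per kb in HOXB13 cells with vehicle, and to 33.4 ± 2.46 CPM per kb in control cells with estradiol and 35.1 ± 2.30 CPM per kb in control cells with vehicle. BCL2L1 and MCL1 make up nearly all of the pro-survival sum, and BAK1 is the largest single term of the pro-death sum. These sums leave out further family genes that were not among those chosen. In control cells with vehicle, the pro-death genes BAD, BOK and BID averaged 41.6, 18.7 and 7.44 CPM per kb. The pro-survival gene BCL2L2 averaged 3.64 CPM per kb there. The margin between the classes thus depends on which genes were listed, and it would be smaller with these genes added.

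In GENCODE v29, 43% of the merged exon length of BCL2L1 lies opposite the antisense gene ABALON, as do 8.46% of BMF opposite BMF-AS1 and 10.9% of BCL2L11 opposite MIR4435-2HG. These partners are not in the count table under those symbols. Whether the counting used strand is not stated, so reads of these genes and of their partners cannot be told apart.

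**Figure D1:**
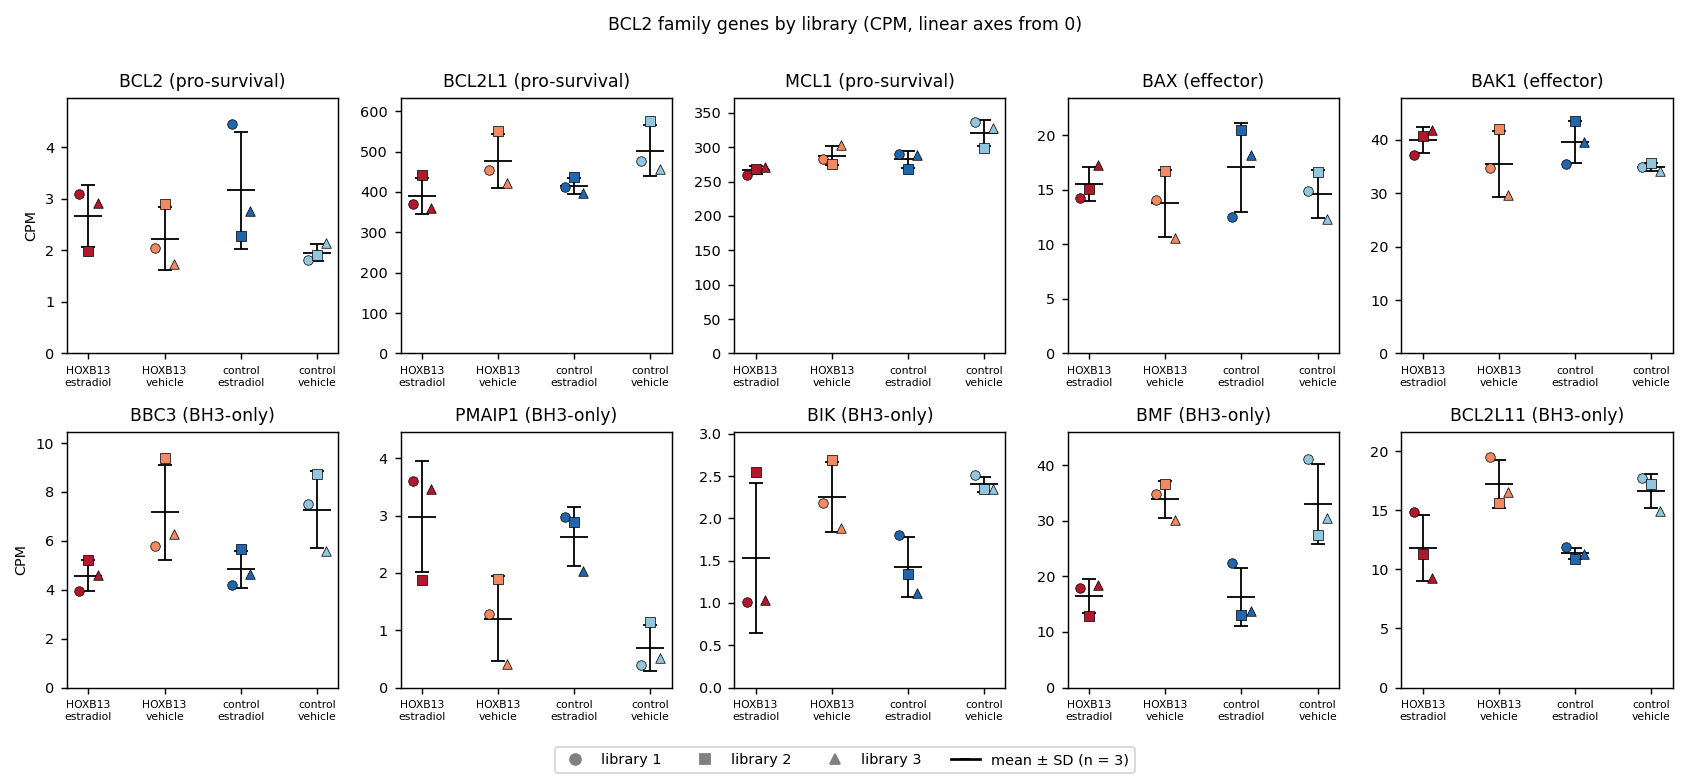
CPM of each of the 10 BCL2 family genes (linear axes from 0) in the 4 groups, with a point for each library, its shape giving the library number, and the mean ± SD of 3 libraries as black marks. The mean of PMAIP1 is higher with estradiol than with vehicle in both kinds of cells, and every estradiol library of BMF and BCL2L11 is below every vehicle library.

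The response to estradiol was asked first, within each kind of cell. Without regard to library numbers, the genes that passed the test were BH3-only genes that went in opposite directions: PMAIP1 rose in control cells, and BMF and BCL2L11 fell in both kinds of cells. When libraries were paired by number, pro-survival genes were called too, BCL2L1 lower in both kinds of cells and MCL1 lower in control cells. In control cells 1 of the 10 genes rose and 2 fell, against a background of 8.65% of all 14799 tested genes higher and 6.72% lower in the same comparison. In HOXB13 cells edgeR called 0 higher and 2 lower, against 7.22% of all genes higher and 6.38% lower. There limma-voom also called 0 higher, with 1982 of all tested genes called in either direction. DESeq2 called 1 higher, PMAIP1, with 2550 of all tested genes called, against 2012 in edgeR. PMAIP1 had an unadjusted p of 0.0138 in edgeR. Genes were called at an adjusted p under 0.05 from edgeR's quasi-likelihood test, adjusted by Benjamini-Hochberg over all tested genes. In each comparison of 2 groups, libraries of the same number deviated together. The fit with the number as a block is therefore given beside each member whose call it changed. That block was fitted over all 4 groups at once. There the lowest correlation of same-number deviations was 0.0926, under the minimum of 0.1 set for pairing. The block calls thus rest on a pairing that did not meet this minimum over the 4 groups.

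PMAIP1 encodes NOXA, the BH3-only partner of MCL1. It had 3.61, 1.88 and 3.47 CPM in HOXB13 cells with estradiol and 1.29, 1.90 and 0.42 CPM in HOXB13 cells with vehicle. In control cells it had 2.98, 2.89 and 2.04 CPM with estradiol and 0.40, 1.15 and 0.52 CPM with vehicle. The estradiol libraries of control cells all lay above the vehicle libraries, whereas in HOXB13 cells the library numbered 2 of the estradiol group and that of the vehicle group were level.

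In control cells PMAIP1 rose 3.76-fold (log2 fold change 1.91, SE 0.49, adjusted p = 0.0165), the widest change of the 10. In HOXB13 cells its log2 fold change was 1.31 (SE 0.46), which missed the threshold with adjusted p = 0.0807 and passed it with the number as a block (adjusted p = 0.0105). The call in control cells was lost without vehicle library 1 (adjusted p = 0.0784) or vehicle library 3 (adjusted p = 0.0672). In HOXB13 cells the call was gained without vehicle library 2 (log2 fold change 1.79, adjusted p = 0.0334). It had 8 to 68 counts per library, and its 8 counts were the fewest of any member in a library.

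The RefSeq promoter of PMAIP1 is shown because this gene rose with estradiol while BMF and BCL2L11 fell. It spans chr18:59899746-59900045 on the plus strand of GRCh38.p14, from 250 bases before to 50 bases after the annotated start. Capitals mark letters of a motif match, here 4 Sp1 boxes (GGGCGG, on either strand) at -146, -106, -94 and -82 from the start.
PMAIP1: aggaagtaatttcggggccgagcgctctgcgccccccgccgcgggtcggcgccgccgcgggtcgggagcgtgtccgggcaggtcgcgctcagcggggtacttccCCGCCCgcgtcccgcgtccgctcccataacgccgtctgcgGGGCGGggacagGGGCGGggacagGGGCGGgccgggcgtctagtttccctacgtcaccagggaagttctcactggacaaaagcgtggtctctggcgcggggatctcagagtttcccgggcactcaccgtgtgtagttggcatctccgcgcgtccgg

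BMF, whose protein senses loss of attachment, was called lower in both kinds of cells. It had 17.8, 12.9 and 18.5 CPM in HOXB13 cells with estradiol against 34.9, 36.6 and 30.2 CPM with vehicle. In control cells it had 22.4, 13.002 and 13.7 CPM with estradiol against 41.1, 27.4 and 30.5 CPM with vehicle. Every estradiol library lay below every vehicle library, in each kind of cell and across both.

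BMF fell 2.07-fold in HOXB13 cells (log2 fold change -1.05, SE 0.21, adjusted p = 0.00472) and 2.02-fold in control cells (log2 fold change -1.01, SE 0.21, adjusted p = 0.00504). The call held in each of 6 fits per kind of cell that left out a single library, with adjusted p up to 0.0333.

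BMF has 2 RefSeq starts, and the promoter of the upstream start is shown for comparison with the gene that rose. It spans chr15:40108830-40109129 on the minus strand of GRCh38.p14 and is written in the direction of transcription. Capitals mark GGTCA, a single arm of the estrogen response element, at -124 and -72, with Sp1 boxes at -45 and 41 and a CCAAT box at -75 that overlaps the arm at -72.
BMF: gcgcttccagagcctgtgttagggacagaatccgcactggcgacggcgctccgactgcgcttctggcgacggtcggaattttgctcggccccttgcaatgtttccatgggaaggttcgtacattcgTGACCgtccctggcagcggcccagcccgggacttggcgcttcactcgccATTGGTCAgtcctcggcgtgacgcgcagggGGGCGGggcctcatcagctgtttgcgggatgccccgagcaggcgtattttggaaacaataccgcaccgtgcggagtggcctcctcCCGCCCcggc

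BCL2L11 encodes BIM, which binds all the main pro-survival proteins. It had 14.9, 11.3 and 9.32 CPM in HOXB13 cells with estradiol against 19.5, 15.6 and 16.5 CPM with vehicle. In control cells it had 11.9, 10.9 and 11.3 CPM with estradiol against 17.7, 17.2 and 14.98 CPM with vehicle. Again every estradiol library lay below every vehicle library.

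BCL2L11 fell by 0.54 on the log2 scale in HOXB13 cells (SE 0.16, adjusted p = 0.0429) and by 0.55 in control cells (SE 0.16, adjusted p = 0.036). Both calls lie near the threshold. In control cells 5 of the 6 fits without a single library lost it (all but that without vehicle library 3), and in HOXB13 cells 4 of 6 lost it (those without estradiol library 2 or 3 or vehicle library 1 or 3), with adjusted p up to 0.117 in control and 0.178 in HOXB13 cells.

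BCL2L11 is a textbook target of FOXO factors, and its promoter is shown since it holds a FOXO match. It spans chr2:111120664-111120963 on the plus strand of GRCh38.p14. Capitals mark the FOXO letters GTAAACA at -223, Sp1 boxes at -118, -91 and -75 and a CCAAT box at -58.
BCL2L11: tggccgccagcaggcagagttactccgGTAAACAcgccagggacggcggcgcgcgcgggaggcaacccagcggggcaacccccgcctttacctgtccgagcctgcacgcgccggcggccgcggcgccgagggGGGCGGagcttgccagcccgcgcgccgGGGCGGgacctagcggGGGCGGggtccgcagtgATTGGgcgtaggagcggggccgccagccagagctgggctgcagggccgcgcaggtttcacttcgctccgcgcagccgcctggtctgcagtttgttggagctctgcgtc

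The remaining BH3-only genes, BBC3 and BIK, were lower with estradiol without passing the threshold in either kind of cell. BBC3, which encodes PUMA, had 3.93, 5.21 and 4.60 CPM in HOXB13 cells with estradiol against 5.81, 9.40 and 6.28 CPM with vehicle. In control cells BBC3 had 4.20, 5.68 and 4.65 CPM with estradiol against 7.52, 8.72 and 5.59 CPM with vehicle. The groups did not overlap in HOXB13 cells and overlapped by a narrow margin in control cells.

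BBC3 had log2 fold changes of -0.64 (SE 0.23, adjusted p = 0.0848) in HOXB13 and -0.59 (SE 0.23, adjusted p = 0.103) in control cells, and with the number as a block it was called in both, with adjusted p = 0.0102 in HOXB13 and adjusted p = 0.0135 in control cells. BIK, a BH3-only protein of the endoplasmic reticulum, had 1.01, 2.55 and 1.03 CPM in HOXB13 cells with estradiol against 2.18, 2.69 and 1.88 CPM with vehicle. In control cells BIK had 1.81, 1.34 and 1.11 CPM with estradiol against 2.51, 2.35 and 2.35 CPM with vehicle. A single high library, number 2 of the HOXB13 estradiol group, made the HOXB13 groups overlap, and in control cells the groups did not overlap.

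BIK had log2 fold changes of -0.55 (SE 0.35, adjusted p = 0.361) in HOXB13 and -0.75 (SE 0.35, adjusted p = 0.179) in control cells. Without the high library BIK was lower by 1.14 on the log2 scale in HOXB13 cells and passed the threshold (adjusted p = 0.0404). That library was singled out for its high BIK value. The 5 other fits that left out a single library did not call BIK (adjusted p up to 0.682).

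Among the pro-survival genes, edgeR called 0 of 3 in either kind of cell without the block, with 1 in HOXB13 cells and 2 in control cells at an unadjusted p under 0.05, and DESeq2 and limma-voom also called 0. At that unadjusted threshold edgeR had 3867 of all 14799 tested genes in HOXB13 cells and 4158 in control cells. BCL2 had 3.08, 1.98 and 2.92 CPM in HOXB13 cells with estradiol against 2.04, 2.91 and 1.73 CPM with vehicle. In control cells BCL2 had 4.44, 2.27 and 2.76 CPM with estradiol against 1.80, 1.92 and 2.14 CPM with vehicle. The control groups did not overlap, and in HOXB13 cells the libraries numbered 2 ran against the others.

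BCL2 had a log2 fold change of 0.26 (SE 0.30, 95% interval -0.39 to 0.91, adjusted p = 0.651) in HOXB13 cells and of 0.69 (SE 0.30, 95% interval 0.05 to 1.34, adjusted p = 0.147) in control cells. Without estradiol library 1 the control value was 0.37 (adjusted p = 0.492).

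The promoter at the RefSeq start of BCL2 is shown as the pro-survival counterpart. It spans chr18:63319720-63320019 on the minus strand of GRCh38.p14, and none of the motifs searched has a match in this window, so no letter is in capitals.
BCL2: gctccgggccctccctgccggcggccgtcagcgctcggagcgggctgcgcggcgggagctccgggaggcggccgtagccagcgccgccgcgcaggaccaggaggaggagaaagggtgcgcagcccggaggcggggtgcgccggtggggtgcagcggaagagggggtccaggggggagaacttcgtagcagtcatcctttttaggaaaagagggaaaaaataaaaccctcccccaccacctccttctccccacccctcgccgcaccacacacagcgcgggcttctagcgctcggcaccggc

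BCL2L1 had 369.95, 441 and 359 CPM in HOXB13 cells with estradiol against 454, 552 and 423 CPM with vehicle. In control cells it had 412, 436 and 397 CPM with estradiol against 476, 574 and 456 CPM with vehicle. The library numbered 2 was the highest of its group in all 4 groups, and within each number the estradiol library was the lower. The groups overlapped in HOXB13 cells and did not in control cells.

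BCL2L1 had log2 fold changes of -0.29 (SE 0.13, adjusted p = 0.159) in HOXB13 and -0.27 (SE 0.13, adjusted p = 0.17) in control cells, and with the block it was called in HOXB13 (adjusted p = 0.00212) and in control cells (adjusted p = 0.00345). MCL1, a short-lived protein, had 259.6, 269 and 272 CPM in HOXB13 cells with estradiol against 283, 276 and 303 CPM with vehicle. In control cells MCL1 had 290.4, 268 and 289 CPM with estradiol against 336, 299 and 327 CPM with vehicle. Neither pair of groups overlapped, although the differences were small.

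MCL1 had log2 fold changes of -0.11 (SE 0.09, adjusted p = 0.489) in HOXB13 and -0.18 (SE 0.09, adjusted p = 0.186) in control cells. With the block it was called in control cells (adjusted p = 0.0342) and not in HOXB13 cells (adjusted p = 0.247).

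The effectors were called in neither kind of cell, with or without the block. BAX had 14.2, 15.1 and 17.3 CPM in HOXB13 cells with estradiol against 14.1, 16.7 and 10.6 CPM with vehicle, and 12.5, 20.5 and 18.2 CPM in control cells with estradiol against 14.9, 16.7 and 12.3 CPM with vehicle. BAK1 had 37.2, 40.8 and 41.9 CPM in HOXB13 cells with estradiol against 34.7, 42.0 and 29.6 CPM with vehicle, and 35.6, 43.5 and 39.6 CPM in control cells with estradiol against 34.8, 35.6 and 34.1 CPM with vehicle. Groups of both genes overlapped in both kinds of cells.

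The log2 fold changes of BAX were 0.17 (95% interval -0.26 to 0.60) in HOXB13 and 0.22 (95% interval -0.21 to 0.65) in control cells. Those of BAK1 were 0.17 (95% interval -0.10 to 0.45) in HOXB13 and 0.18 (95% interval -0.09 to 0.46) in control cells. The intervals end at 0.65 for BAX and 0.46 for BAK1 in control cells, so a change as large as that of BMF lies outside them.

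**Figure D2:**
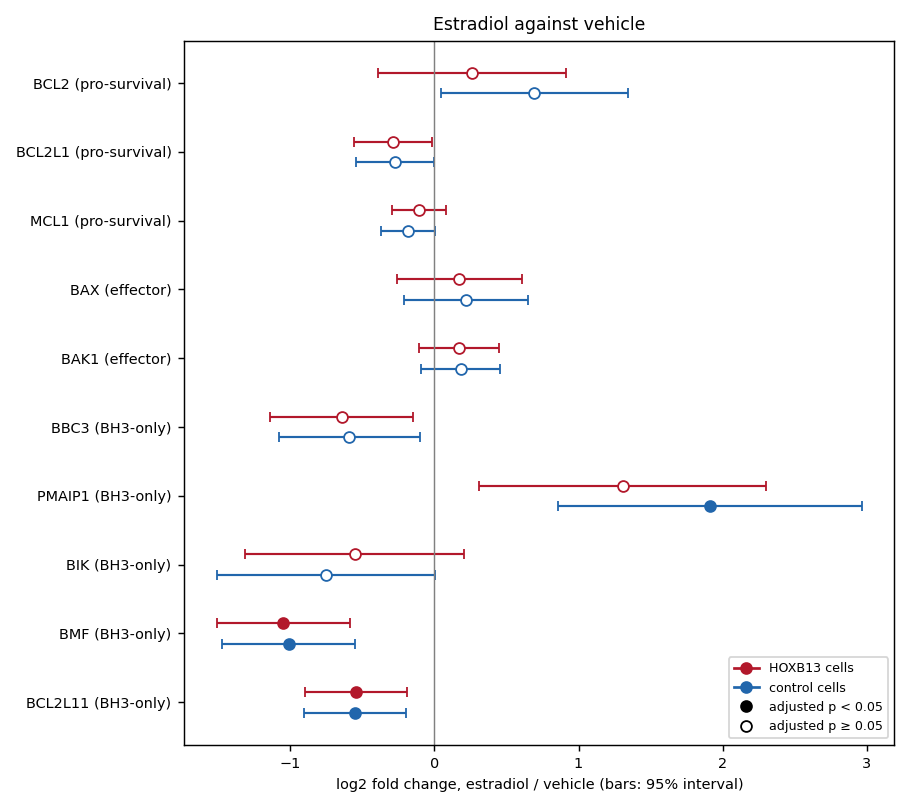
Log2 fold change of estradiol over vehicle for each gene, with its 95% interval, in HOXB13 cells (red, upper) and control cells (blue, lower). Values are from the fit without the block. Filled points have an adjusted p under 0.05: BMF and BCL2L11 in both kinds of cells and PMAIP1 in control cells.

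With the block, 1 gene was higher and 4 were lower in HOXB13 cells, against 15.5% of all tested genes higher and 15% lower in that fit, and 1 was higher and 5 were lower in control cells, against 17.5% higher and 16.5% lower. The medians that follow are from the fit without the block. The median log2 fold change of the 10 genes was -0.20 in HOXB13 and -0.23 in control cells, beside -0.01 over all tested genes in each. By class it was -0.11 for the pro-survival, 0.17 for the effector and -0.55 for the BH3-only genes in HOXB13 cells. In control cells it was -0.18 for the pro-survival, 0.20 for the effector and -0.59 for the BH3-only genes.

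Taking the mean of the estradiol effects in both kinds of cells, 6 libraries against 6, 1 gene rose and 4 fell, against 14.6% of all tested genes higher and 13.5% lower. This average uses the same libraries as the separate comparisons and is not independent of them. PMAIP1 rose 3.05-fold (log2 fold change 1.61, SE 0.34, adjusted p = 0.00256). BMF fell by 1.03 (SE 0.15, adjusted p = 0.000158), BBC3 by 0.62 (SE 0.16, adjusted p = 0.0112), BCL2L11 by 0.55 (SE 0.12, adjusted p = 0.00281) and BCL2L1 by 0.28 (SE 0.09, adjusted p = 0.0289) on the log2 scale. BIK (-0.65, adjusted p = 0.0664), BCL2 (0.48, adjusted p = 0.115), MCL1 (-0.15, adjusted p = 0.0951), BAK1 (0.18, adjusted p = 0.168) and BAX (0.20, adjusted p = 0.34) did not pass. With the block, BIK (adjusted p = 0.0224) and MCL1 (adjusted p = 0.0135) were called lower and BAK1 (adjusted p = 0.036) higher, which made 2 genes higher and 6 lower, against 22.7% of all tested genes higher and 22.8% lower in that fit.

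The average calls of PMAIP1, BMF, BBC3 and BCL2L11 held in each of the 12 fits that left out a single library. That of BCL2L1 held in 6 of them and was lost in those without HOXB13 estradiol library 1 or 3, HOXB13 vehicle library 2, control estradiol library 1 or 3 or control vehicle library 2 (adjusted p 0.0544 to 0.0727).

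Libraries of the same number can be set against each other within each kind of cell, which gives 6 differences per gene. BMF, BCL2L11, BBC3, BIK, BCL2L1 and MCL1 were lower with estradiol in 6 of 6 such differences. Such signs were not counted over all tested genes, so these counts cannot set the family apart from other genes. PMAIP1 and BCL2 were higher in 5 of 6, and the exception was for both the HOXB13 libraries numbered 2, where the difference of log2 CPM was -0.02 for PMAIP1 and -0.53 for BCL2. In the other HOXB13 pairs it was 1.42 and 2.78 for PMAIP1 and 0.57 and 0.73 for BCL2. In control cells it was 2.61, 1.26 and 1.78 for PMAIP1 and 1.25, 0.23 and 0.35 for BCL2.

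BAK1 was higher in 5 of 6 differences and BAX in 4 of 6. With the 4 libraries numbered 2 left out together, the average estradiol effect was past the threshold for 8 of the 10 genes, against 37.5% of all tested genes. BCL2 was then among them (log2 fold change 0.77, adjusted p = 0.0136), as were BIK (-0.86, adjusted p = 0.0218) and MCL1 (-0.16, adjusted p = 0.0499). What the numbers stand for is not stated.

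**Figure D3:**
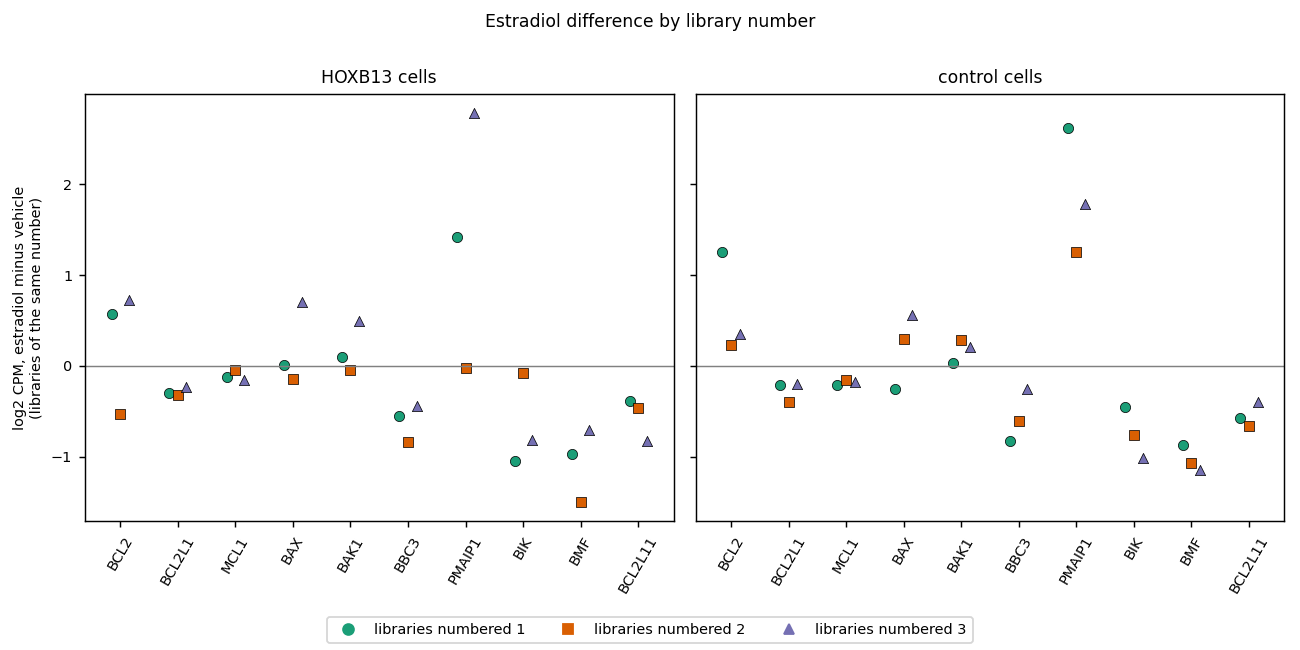
Difference of log2 CPM between the estradiol and the vehicle library of the same number for each gene, in HOXB13 cells (left) and control cells (right), with shapes for the library numbers and a line at 0. The HOXB13 libraries numbered 2 show PMAIP1 at -0.02 and BCL2 at -0.53, while the other pairs of both genes are above 0.

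The effect of HOXB13 was then compared at each treatment. No member of the family passed the test between HOXB13 and control cells: edgeR called 0 of 10 with vehicle and 0 of 10 with estradiol, and DESeq2 and limma-voom also called 0 in each. At an unadjusted p under 0.05 the count was 0 of 10 in each comparison by all 3 tools without the block. In edgeR 559 of all 14799 tested genes reached that level with vehicle and 489 with estradiol. Few genes differed anywhere in the table: with vehicle 0.0203% of tested genes were higher and 0% lower in HOXB13 cells, and with estradiol 0.0135% were higher and 0% lower. With the block these shares were 0.189% higher and 0.216% lower with vehicle and 0.142% higher and 0.25% lower with estradiol, and 0 of the 10 genes were called in either. At an unadjusted p under 0.05 the block gave 1 gene with vehicle, MCL1 (log2 fold change -0.16, adjusted p = 0.439 in edgeR), and 0 with estradiol. Over all 14799 tested genes the block gave 1421 with vehicle and 1518 with estradiol at that level. In the differences between HOXB13 and control libraries of the same number and treatment, BCL2L1 and MCL1 were each lower in HOXB13 cells in 5 of 6, and the other 8 genes were lower in 2 to 4 of 6. Such signs were not counted over all tested genes.

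The intervals, from the fit without the block, say how large a HOXB13 effect that fit allows. For the abundant genes they were narrow: MCL1 had a log2 fold change of -0.08 (95% interval -0.27 to 0.10) with estradiol and -0.16 (95% interval -0.35 to 0.03) with vehicle, and BCL2L1 had -0.09 (95% interval -0.36 to 0.18) with estradiol and -0.08 (95% interval -0.35 to 0.19) with vehicle. BMF had 0.00 (95% interval -0.46 to 0.47) with estradiol and 0.04 (95% interval -0.41 to 0.49) with vehicle. The intervals of the low genes were wide. BCL2 had -0.25 (95% interval -0.88 to 0.39) with estradiol and 0.18 (95% interval -0.48 to 0.85) with vehicle. With the block the SE with vehicle was 0.07 against 0.13 for BCL2L1 and 0.07 against 0.09 for MCL1. MCL1 with vehicle had an unadjusted p of 0.0241 in that edgeR fit, so its interval there leaves out 0.

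PMAIP1 had the widest interval, with a log2 fold change of 0.18 (95% interval -0.75 to 1.11) with estradiol and 0.79 (95% interval -0.33 to 1.90) with vehicle. Groups of HOXB13 and control libraries overlapped for all 10 genes at both treatments. Overlap was not counted over all tested genes, so this cannot set the family apart from other genes. Averaged over both treatments and without the block, 0 of 10 genes were called in edgeR, DESeq2 and limma-voom, with unadjusted p under 0.05 for 0 in edgeR, 1 in DESeq2 and 0 in limma-voom, while 0.0878% of all tested genes were higher and 0.0608% lower. In edgeR 896 of all tested genes had an unadjusted p under 0.05.

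**Figure D4:**
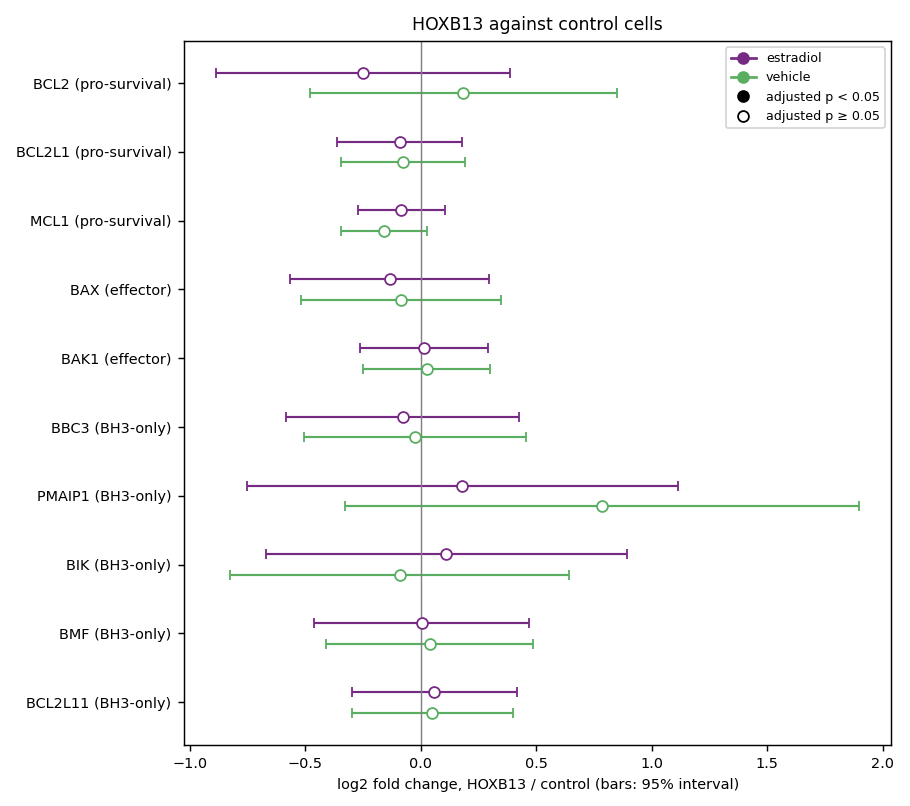
Log2 fold change of HOXB13 over control cells for each gene with its 95% interval, with estradiol (purple, upper) and with vehicle (green, lower). Values are from the fit without the block, where all points are open (adjusted p of at least 0.05) and every interval includes 0.

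Whether HOXB13 changed the response to estradiol was asked of the difference between the 2 estradiol responses. edgeR, DESeq2 and limma-voom each called 0 of the 10 genes, with 0 at an unadjusted p under 0.05 in each, and 0% of all tested genes were called by edgeR. In edgeR 219 of all tested genes had an unadjusted p under 0.05. The widest differences, HOXB13 minus control cells, were -0.61 for PMAIP1 (95% interval -2.05 to 0.84) and -0.43 for BCL2 (95% interval -1.35 to 0.49) on the log2 scale. For BMF the difference was -0.04 (95% interval -0.68 to 0.61) and for BCL2L11 0.01 (95% interval -0.49 to 0.51). PMAIP1 passed the threshold in control and not in HOXB13 cells, and the test of that difference did not pass.

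Pro-survival and pro-death genes were also set against each other within each library, as a difference of log2 CPM with no test. Only changes of a ratio are read, since the genes differ in length. MCL1 relative to its partner PMAIP1 was lower with estradiol, with a mean log2 ratio of 6.49 ± 0.52 with estradiol and 7.99 ± 1.07 with vehicle in HOXB13 cells, and 6.71 ± 0.32 with estradiol and 8.77 ± 0.77 with vehicle in control cells (SD, n = 3 each). The groups did not overlap in either kind of cell, though in HOXB13 cells the libraries numbered 2 were nearly level at 7.09 with estradiol and 7.11 with vehicle.

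BCL2 relative to BBC3 and BCL2L11 was higher with estradiol. The BCL2 to BBC3 ratio was -0.78 ± 0.52 with estradiol and -1.64 ± 0.17 with vehicle in HOXB13 cells, a difference of 0.87, and the difference was 1.18 in control cells, with no overlap of groups in either. The BCL2 to BCL2L11 ratio differed by 0.81 in HOXB13 cells, where the groups overlapped, and by 1.16 in control cells, where they did not. The BCL2 to BAX ratio, often used as a balance of survival and death, differed by 0.07 in HOXB13 and 0.41 in control cells, with overlap in both.

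The ratio of BCL2L1 to BAX was lower with estradiol by 0.48 in HOXB13 cells, without overlap, and by 0.47 in control cells, with overlap. Within the pro-survival class, the BCL2 to MCL1 ratio was higher by 0.36 in HOXB13 cells, with overlap, and by 0.80 in control cells, without. Between HOXB13 and control cells at the same treatment all 6 ratios overlapped.

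**Figure D5:**
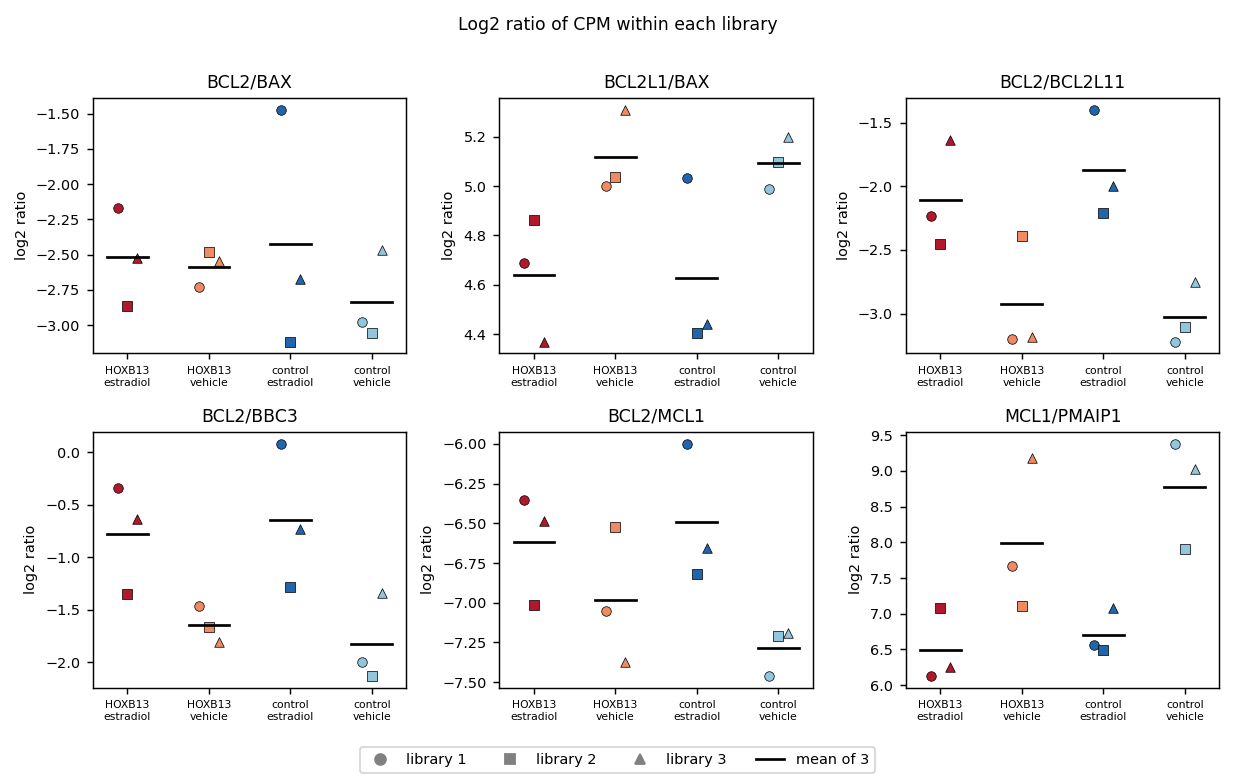
Log2 ratio of CPM of 6 pairs of genes within each library, by group, with the mean of 3 libraries as a bar; the vertical axes do not start at 0. MCL1/PMAIP1 is lower, and BCL2/BBC3 is higher, in every estradiol library than in every vehicle library of the same kind of cell.

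Of 13 further family or BCL2-related genes, 9 had enough counts to be tested. BCL2A1, BCL2L10, BCL2L14 and BCL2L15 had at most 2 counts in a library. In HOXB13 cells edgeR called 0 of the 9 genes without the block, and in control cells 1, BOK, an effector relative of BAX, which had 69.3, 80.2 and 66.9 CPM with estradiol against 47.8, 54.3 and 49.7 CPM with vehicle. BOK rose 1.43-fold in control cells (log2 fold change 0.51, SE 0.13, adjusted p = 0.0187), and in HOXB13 cells its log2 fold change was 0.24 (SE 0.14, adjusted p = 0.292, and 0.0221 with the block). The difference of its responses, HOXB13 minus control cells, was -0.27 (95% interval -0.68 to 0.14). Of the merged BOK exons, 7.41% lie opposite BOK-AS1, which had at most 2 counts.

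With the block, BID, whose protein links death receptors to mitochondria, was also higher in control cells (log2 fold change 0.31, adjusted p = 0.0178), BCL2L12 was higher in control (0.43, adjusted p = 0.0245) and HOXB13 cells (0.42, adjusted p = 0.0306), and the mitophagy receptor BNIP3L was lower in control cells (-0.25, adjusted p = 0.00687). BCL2L12 shares 33.1% of its exon length with IRF3 on the opposite strand, a gene with 488 to 876 counts per library, and the reads of this pair cannot be told apart. BCL2L2 (BCL-W, pro-survival), the BH3-only genes BAD and HRK, BCL2L13 and BNIP3 were called in neither fit in either kind of cell. Their log2 fold changes without the block ran between -0.16 and 0.77, the highest being that of HRK in control cells (SE 0.44, adjusted p = 0.273).

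Genes around the family were described by the average estradiol effect, against the same background of 14.6% higher and 13.5% lower, or 22.7% higher and 22.8% lower with the block. Of 18 transcription factors known to act on family genes, 6 were higher and 5 lower (6 and 7 with the block). The named examples are MYC (log2 fold change 1.92, adjusted p = 5.34e-07), the cell cycle factor E2F1 (1.42, adjusted p = 2.21e-08), the progesterone receptor PGR (0.78, adjusted p = 0.00182) and FOXO1 (-0.84, adjusted p = 0.000362), the last a member of the FOXO factors that act on BCL2L11. FOXO1 averaged 5.26 ± 0.32 CPM with estradiol and 8.98 ± 1.02 CPM with vehicle in HOXB13 cells, and 4.42 ± 1.21 CPM with estradiol and 8.35 ± 0.97 CPM with vehicle in control cells (SD, n = 3 each).

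Of 17 tested p53 target genes outside the family, 1 was higher and 2 lower without the block, and 5 were higher and 6 lower with it. AEN, an apoptosis-linked nuclease, rose 2.10-fold (adjusted p = 0.000138), while TP53INP1 (log2 fold change -1.08, adjusted p = 0.00572) and BTG2 (-0.56, adjusted p = 0.00101) fell. BBC3 and PMAIP1, the p53 targets named above, went opposite ways in this average, with PMAIP1 higher and BBC3 lower.

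Of 16 binders and turnover factors of BCL2 family proteins, 5 were higher and 2 lower (7 and 4 with the block). PIM1, a kinase that phosphorylates BAD, rose 2.89-fold (adjusted p = 3.17e-05), PIM2 rose by 0.48 (adjusted p = 0.00749) and the BCL2 binder BAG1 by 0.45 (adjusted p = 0.000936) on the log2 scale. USP9X, a deubiquitinase of MCL1, fell by 0.36 (adjusted p = 0.0338).

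Downstream of mitochondria, 2 of 14 tested caspase and apoptosome genes were higher and 1 lower (3 and 2 with the block). CYCS, cytochrome c, averaged 172 ± 9.91 CPM with estradiol and 102 ± 15.1 CPM with vehicle in HOXB13 cells, and 184 ± 13.4 CPM with estradiol and 114 ± 13.7 CPM with vehicle in control cells (SD, n = 3 each). It rose 1.65-fold (adjusted p = 2.46e-05). The mitochondrial nuclease ENDOG rose by 0.33 (adjusted p = 0.0439) and the initiator caspase CASP9 fell by 0.57 (adjusted p = 0.00215) on the log2 scale.

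Of 6 tested inhibitor of apoptosis genes, 2 were higher and 0 lower in edgeR without the block, and 2 were higher and 2 lower with it. Those higher without the block were BIRC3 (0.73, adjusted p = 0.0122) and BIRC5 (0.65, adjusted p = 0.000114), which also acts in mitosis. In the death receptor pathway 4 of 12 tested genes were higher and 3 lower (6 and 3 with the block). The receptors FAS (0.65, adjusted p = 0.00101) and TNFRSF10A (0.49, adjusted p = 0.00414) rose, whereas the ligand TNFSF10 (-0.62, adjusted p = 0.00117) and CFLAR (-0.45, adjusted p = 0.0027), an inhibitor of caspase 8, fell. In the average HOXB13 effect edgeR called 0 genes of these lists without the block. With it, 1 transcription factor was higher, 1 binder or turnover factor was lower, and 1 p53 target was higher and 1 lower, against 1.07% of all tested genes higher and 1.54% lower.

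The promoter windows were searched on both strands for a set of motifs in 35116 RefSeq promoters of the same length. Of the 10 genes, 8 had an entry (10 entries in all); MCL1 and BIK had none. The full estrogen response element (GGTCANNNTGACC) was found in 0 of the 10 entries and in 0.057% of all promoters. Its single arm GGTCA, which the full element also contains, was found in 3 entries (BAX and both of BMF), against 37.4% of all promoters.

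The Sp1 box was in 6 of the 10 entries (45% of all promoters) and the CCAAT box (CCAAT) in 5 (34.6%). The FOXO letters GTAAACA were in the BCL2L11 entry alone (3.42% of all promoters), and CAATAAA, the core bound by HOXB13, in that of BAK1 alone (4%), where it overlaps a CCAAT match. The E2F letters TTTCCCGC (1.63%) and TTTGGCGC (0.652%) and the cAMP response element TGACGTCA (1.85%) were in 0 of the 10 entries. A match in these windows is no binding site.

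The genes whose pattern over the 12 libraries was most like that of BCL2 were GLRB, THAP9-AS1, AP1S3, S1PR5 and C11orf24, with a root-mean-square difference of centred log2 CPM of 0.23 to 0.25 among 12015 candidates. The spread of BCL2 itself over the libraries was 0.37 by the same measure. For PMAIP1, the member with the widest range of group means (2.02 log2 units), they were IL17D, MTFP1, FHL2, CNIH2 and PPM1J, with 0.47 to 0.52, beside a spread of 1.01.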

How the data were processed

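The deposited table holds raw counts of reads per gene symbol for 12 libraries, made by the authors. The submitters' processing notes name FastQC, STAR, Picard, HTSeq and GRCh37 (hg19). Not given in the sources used here: tool versions, gene annotation and use of strand. No column of another sample was used.

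The 10 members and all gene lists were chosen with earlier results of these data known. Counts were fitted with edgeR 4.0.16 (quasi-likelihood, robust, TMM scaling) in R 4.3.3, with a mean for each of the 4 groups, for the 14799 genes that passed filterByExpr (minimum count 10, minimum total 15). These held at least 99.92% of counts, and TMM factors ran from 0.974 to 1.04. P-values were adjusted by Benjamini-Hochberg over all tested genes, with a threshold of 0.05, and intervals are 95% intervals from the moderated fit. An exact permutation of 3 against 3 libraries cannot go below p = 0.1. No 2 libraries of a group agreed within sampling noise (chi-square per degree of freedom at least 6.82).

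Libraries of the same number correlated in their deviations from group means at 0.123 to 0.457 over the 4 comparisons of 2 groups, above the minimum of 0.1 in every pair, so the number was treated as pairing them there. In the comparison of responses, over all 4 groups, the lowest correlation was 0.0926 while other numbers reached 0.255, and there it was not. The block itself was a single term fitted over all 12 libraries, so its calls assume pairing across the 4 groups. The pairing rests on the data, since the labels do not explain the numbers. Libraries of other numbers correlated at up to 0.105 for estradiol in control cells and 0.0737 in HOXB13 cells. For HOXB13 with vehicle they reached 0.169, above the lowest same-number value of 0.125. For HOXB13 with estradiol they reached 0.12, beside 0.123, so pairing is poorly separated in the HOXB13 comparisons. Log2 CPM used a prior count of 2. Levels per kilobase used merged exons of GENCODE v29 (GRCh38), and promoters came from RefSeq on GRCh38.p14. Alternatives were DESeq2 1.42.0, limma-voom (limma 3.58.1), RLE scaling, no filter, the block, only the libraries compared, and leaving out libraries. From each further list, up to 4 genes with the widest called change in the average effects are named. For likeness, candidates had a mean log2 CPM of at least 1.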

Additional observations from a re-analysis of the deposited data

How the results depend on the processing

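Of 1060 gene results recomputed under other settings, 1018 kept their direction and side of the threshold or stayed uncalled, 19 lost the call, 23 gained it and 0 called results turned round. Of the 882 uncalled under both settings, 99 had another sign. All 104 recomputed levels and ratios moved by less than 1 SD between replicates. Low counts limit PMAIP1, BIK and BCL2, whose intervals are the widest, and 3 libraries a group limit every call.

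With the replicate block, 6 of the 10 genes were called for estradiol in control cells (3 without it), 5 in HOXB13 cells (2 without) and 8 in the average (5 without). Over all tested genes the block gave 5032 calls in control cells (2275 without), 4519 in HOXB13 cells (2012), 6731 in the average (4158), 60 for HOXB13 with vehicle (3), 58 for HOXB13 with estradiol (2) and 386 for the average HOXB13 effect (22). It gave 0 calls among the 10 genes for HOXB13 and 0 over all genes for the difference of responses, where the numbers were not treated as pairing.

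Without the libraries numbered 2, 4 of the 10 genes were called in HOXB13 cells and 8 in the average, and all-gene calls were 3566 in control cells, 3281 in HOXB13 cells, 5557 in the average, 37 for HOXB13 with vehicle, 21 with estradiol, 160 for its average and 1 for the difference. With only the libraries compared, 1 of the 10 was called in HOXB13 cells, where BCL2L11 was lost, and 1 gene of all for HOXB13 with vehicle. For HOXB13 with vehicle, all-gene calls were 62 without the filter, 20 by DESeq2 and 6 by limma-voom, and with estradiol 30, 20 and 5 in the same order of settings. The average HOXB13 effect had 141 without the filter and 104 by DESeq2, and the difference of responses 4 without the filter. The cause was not tested.

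Leaving out a single library gave 1 to 2 of the 10 genes called in control cells, 1 to 3 in HOXB13 cells, 4 to 6 in the average and 0 in every HOXB13 comparison. All-gene calls ran from 1489 to 2733 in control cells, 1236 to 1879 in HOXB13 cells, 3455 to 4680 in the average, 1 to 6 for HOXB13 with vehicle, 2 to 2 with estradiol and 10 to 32 for its average.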
